A study of Mus musculus with 47 samples.

Results

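The genes of the 4 subunits that set PBAF apart from other SWI/SNF complexes, Pbrm1, Arid2, Brd7 and Phf10, were examined in every peak list of a chromatin immunoprecipitation sequencing (ChIP-seq) study of NMuMG cells, a mouse line with the epithelial character of the mammary gland it came from. They are 4 of 21887 protein-coding genes on chromosomes 1 to 19, X and Y, and were chosen by name, not by any measured value. A peak, meaning a stretch that the authors' caller found enriched in the ChIP over its input, counted for a gene when it lay in the mm10 gene span or within 10 kb of either end. By that rule 224 of 806216 deposited peaks belonged to these genes. Pbrm1 knockout (KO) and control cells were left untreated (0 h) or given 5 ng/ml transforming growth factor β1 (TGFβ1), a cytokine that drives NMuMG cells through an epithelial to mesenchymal transition, for 24 or 48 h. The library names carry sgPbrm1 and sgCt, and the labels say nothing of a clone or a pool, of the part of Pbrm1 that was cut, or of separate cultures behind the replicates. PHF10 was profiled in KO and control cells at 0 and 48 h and in control cells also at 24 h, BRG1 in control cells at 0 h, ATF3 in both genotypes at 0, 24 and 48 h, FOSL2 and FOSB in both at 0 and 48 h, and 5 histone marks in control cells at 0 and 48 h. A peak list came with 32 of the 47 samples, and the remaining 15 were inputs. Replicates (2 libraries per time) exist for PHF10 in control cells at 0 and at 48 h, and each further group is a single library, so that a single comparison had replicates in both arms.

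SWI/SNF complexes use ATP to slide and evict nucleosomes, and BRG1 is one of their ATPases. PBAF shares a core with the other forms and adds PBRM1, a protein with a row of bromodomains that bind acetylated histone tails, H3K14ac among them, ARID2, a large scaffold with an ARID DNA-binding domain, BRD7, a further bromodomain protein, and PHF10, which carries PHD fingers that read the histone H3 tail. The peaks described here lie at the genes that make these proteins and say where factors and marks were found along them, not how much RNA or protein each gene gave. Loss of PBRM1 protein in the KO cells was not measured by any of these lists.

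In mm10, Pbrm1 spans 31019138 to 31121592 of chromosome 14 on the plus strand (102.5 kb), Brd7 spans 88329894 to 88362252 of chromosome 8 on the minus strand (32.4 kb), and Phf10 spans 14944994 to 14961260 of chromosome 17 on the minus strand (16.3 kb). Arid2 spans 96287522 to 96405463 of chromosome 15 (117.9 kb). Its strand was not in the table used, so positions in Arid2 are counted from its lower-coordinate end, which is called its start here. Long genes give a wider net for peaks, and Arid2 is longer than 91.0% of protein-coding genes, Pbrm1 than 89.3%, Brd7 than 67.6% and Phf10 than 48.5%. The divergent gene Gnl3 starts 7 bp upstream of Pbrm1, so a peak at the Pbrm1 start cannot be assigned to one of the pair. Smim4 and Nt5dc2 start 109792 and 111951 bp downstream of the Pbrm1 start, inside its flank, and Wdr27 and 1600012H06Rik start 18136 and 18076 bp downstream of the Phf10 start. Gm38469 spans 96134817 to 96287398 of chromosome 15, up to just below the Arid2 span, and its strand is not given here. A peak at or upstream of the Arid2 start may therefore lie in Gm38469.

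The 250 bases before the annotated starts, from RefSeq (GRCm38.p6), are shown because the factor and mark peaks below fall on them to different extents. Lower case is used throughout, and capitals mark TGACG or its reverse complement CGTCA, the core of a cyclic AMP response element, a kind of site that ATF3 and its partners are known to bind. Arid2 was not in the promoter table.
Pbrm1 (chr14:31018888-31019137, plus strand): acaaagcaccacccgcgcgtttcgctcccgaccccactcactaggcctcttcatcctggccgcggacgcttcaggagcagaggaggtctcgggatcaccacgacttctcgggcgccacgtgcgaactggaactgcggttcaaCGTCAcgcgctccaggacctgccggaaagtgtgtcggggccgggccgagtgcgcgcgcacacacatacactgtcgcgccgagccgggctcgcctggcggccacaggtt
Brd7 (chr8:88362173-88362422, minus strand): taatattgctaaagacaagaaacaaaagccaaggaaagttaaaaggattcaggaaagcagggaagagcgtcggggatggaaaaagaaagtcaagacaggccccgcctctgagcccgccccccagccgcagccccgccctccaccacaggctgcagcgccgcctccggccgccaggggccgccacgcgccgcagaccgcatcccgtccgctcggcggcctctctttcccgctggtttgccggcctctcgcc
Phf10 (chr17:14961261-14961510, minus strand): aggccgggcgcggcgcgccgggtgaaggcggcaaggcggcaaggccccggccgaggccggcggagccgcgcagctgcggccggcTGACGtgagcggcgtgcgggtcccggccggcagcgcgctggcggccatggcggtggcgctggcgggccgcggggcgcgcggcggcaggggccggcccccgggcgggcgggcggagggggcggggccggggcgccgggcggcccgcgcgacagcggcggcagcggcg
These 3 stretches held 31 (Pbrm1), 22 (Brd7) and 51 (Phf10) CpG dinucleotides, against a median of 6 over 32851 promoters of the table, and their GC content was 67.2%, 64.0% and 88.4% against a median of 52.4%. Phf10 had more CpG than 99.9% of promoters. Searching both strands, TGACG occurred once at Pbrm1, with its first base at -108, and once at Phf10, at -166, both counted from the annotated start, and 17.8% of all promoters hold it. The full element TGACGTCA, which contains TGACG, and the AP-1 site TGANTCA occurred in none of the 3, and 1.55% and 6.75% of all promoters hold them. CACGTG, the E-box, occurred once at Pbrm1, at -135 (6.02% of promoters), and GGGCGG, the GC box, 2 times at Brd7 and 5 times at Phf10 (32.7% of promoters).

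All 4 genes had peaks at the start, and the rest of the window differed from gene to gene. Of the 224 peaks, 85 (37.9%) touched the 2 kb to either side of a gene start, 74 lay in the body, 15 within 2 kb of the end, 43 in the downstream flank and 7 in the upstream flank. These numbers pool lists of unlike length, and the share of start peaks over all genes is not given, so 37.9% cannot be read as particular to these genes. Pbrm1 had 17 start peaks among 52, and 29 of its other peaks lay within 1 kb of the start of Smim4 or Nt5dc2, beyond its 3′ end. Its own 102.5 kb body held 4 peaks and its end zone 1. Arid2 had 100 peaks, of which 31 were at the start and 60 in the body. Brd7 had 20 start peaks among 34, 3 in the body, and 9 past its 3′ end, where no annotated start lies within 1 kb. Those 9 peaks lay inside the span of Adcy7 (88272190 to 88329965), which overlaps the Brd7 3′ end. Phf10 had 17 start peaks among 38, and 13 at its 3′ end, all within 1 kb of the divergent starts of Wdr27 and 1600012H06Rik. After joining overlapping peaks of all lists, the 4 genes held 47 sites, 19 of them called in 1 list and 10 in 5 lists or more. The start site recurred most within Arid2 (19 lists), Brd7 (19) and Phf10 (17). At Pbrm1 the start site was called in 17 lists and the one at Nt5dc2 in 18.

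**Figure D1:**
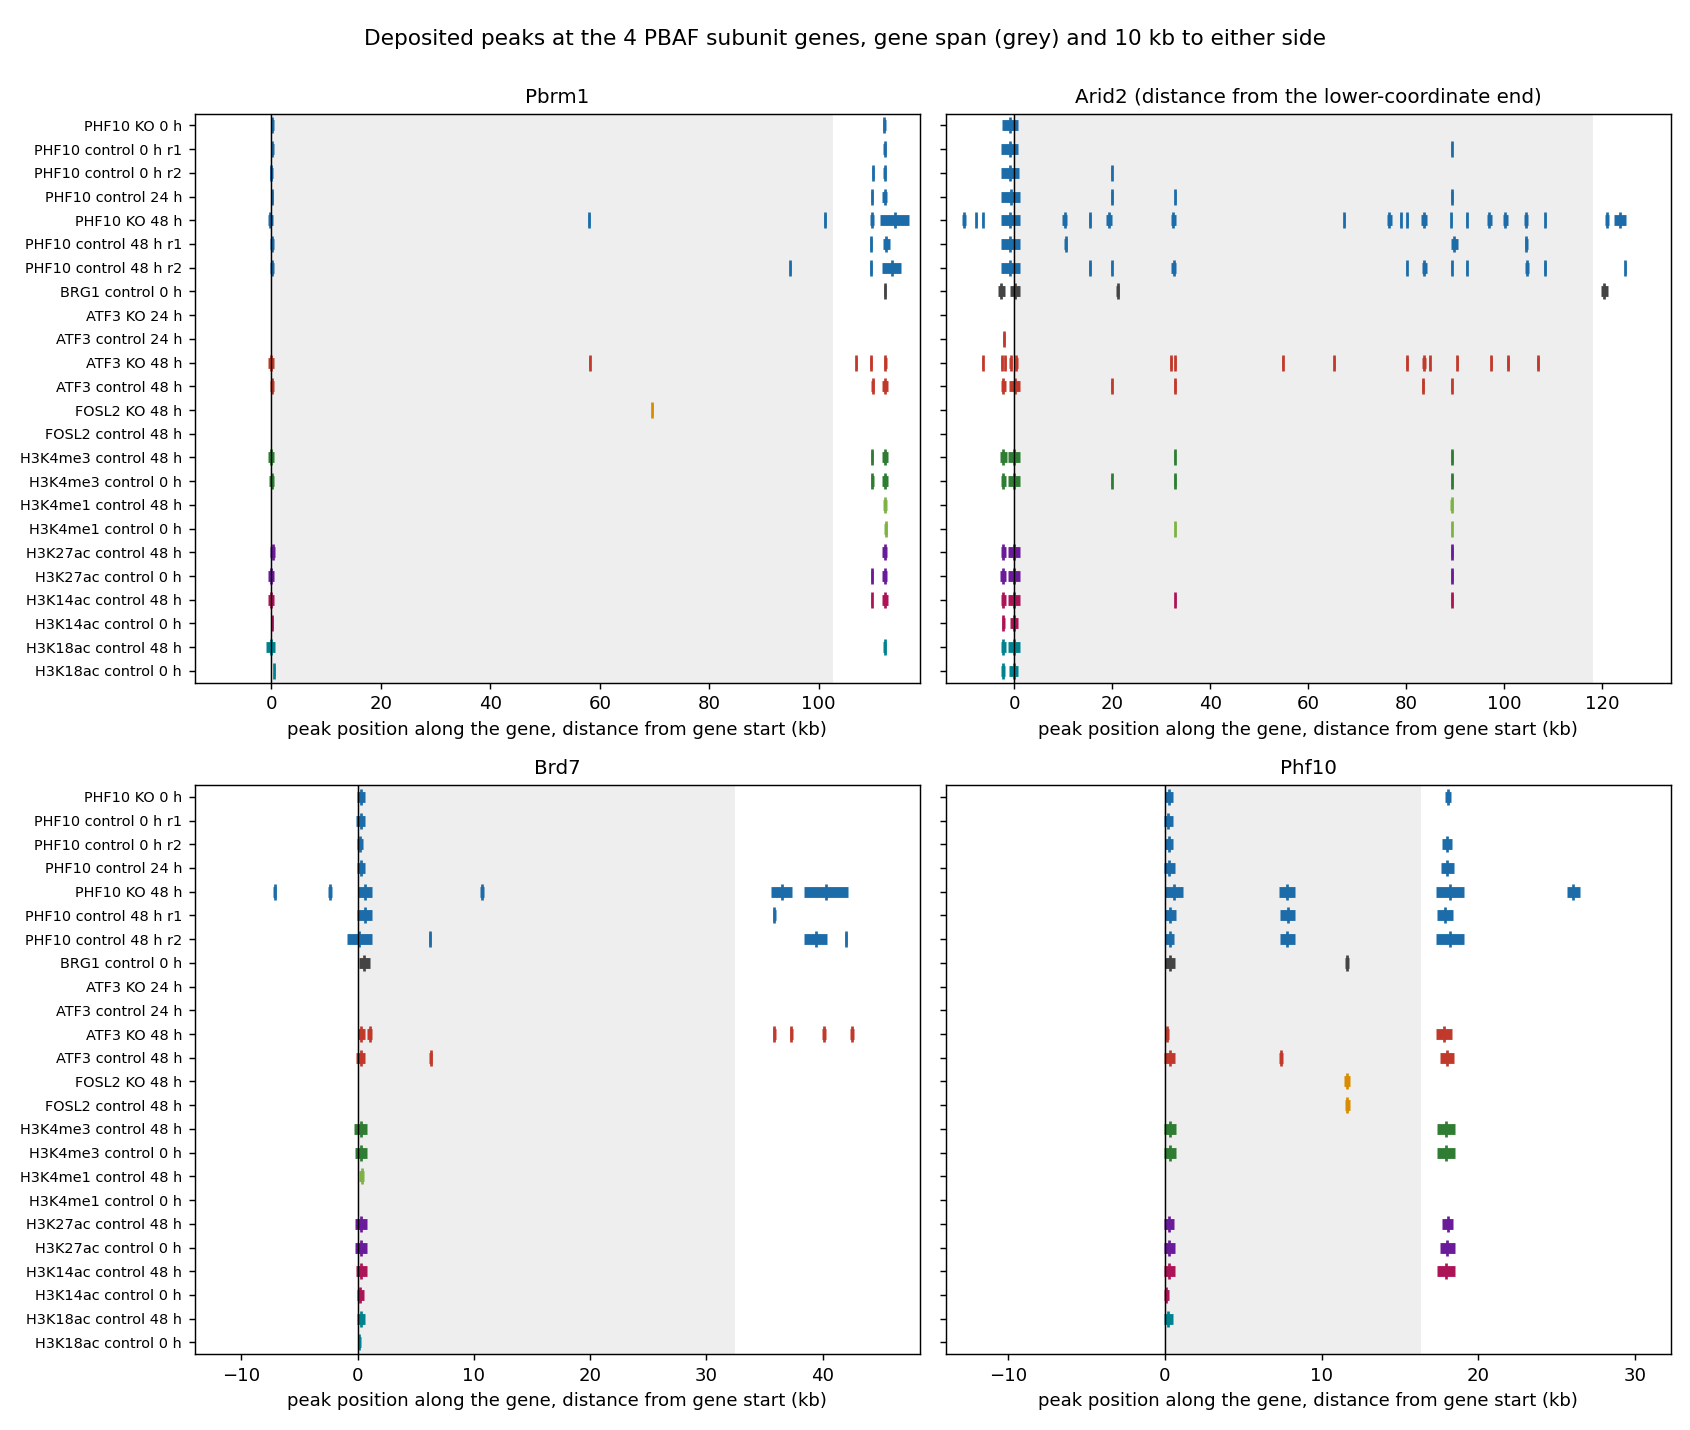
Every deposited peak at the 4 genes, drawn to scale by distance from the gene start in kb (x axis), with 1 row per peak list (r1 and r2 are control replicates) and the gene span in grey. The ATF3 and FOSL2 lists at 0 h and all FOSB lists are left out because they held no peak here. Starts carry peaks in most rows, body sites called in 5 lists or more occur at Arid2, and the peaks right of the Pbrm1 and Phf10 spans sit at neighbouring starts, except an ATF3 peak of KO cells at 106.9 kb (Pbrm1) and a PHF10 peak of KO cells at 26.1 kb (Phf10).

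PHF10, itself a product of one of these genes, had a peak at the start of all 4 in all 7 of its lists. Across the lists, the share of all genes with a PHF10 peak in the same window was 52.4% in KO cells and 48.2% and 59.1% in control cells at 0 h, 71.3% in control cells at 24 h, and 87.9% in KO cells and 75.0% and 83.8% in control cells at 48 h. A peak within 2 kb of the start was found for 41.6% (KO), 36.5% and 47.7% (control) of the 17492 genes with a start in the promoter table at 0 h, for 58.9% in control cells at 24 h, and for 75.6% (KO), 61.3% and 71.0% (control) at 48 h. The lists differed in length: 11515 peaks in KO cells and 11285 and 14731 in control cells at 0 h, 28011 in control cells at 24 h, and 158815 in KO cells and 43549 and 102434 in control cells at 48 h. Read depth is unknown, and the share of a count that list length sets was not tested.

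Within the lists, the start peaks took different places. The fold given by the authors, ChIP over input, put the Brd7 start peak at rank 44 of 11515 in KO cells at 0 h (fold 9.84), against rank 1731 of 11285 and rank 3828 of 14731 in control cells. At Phf10 the start peak ranked 3219 of 11515 in KO cells at 0 h, against 1554 of 11285 and 879 of 14731 in control cells. The Phf10 start peak reached rank 62 of 43549 in the first control library at 48 h (fold 7.02) but rank 52960 of 102434 in the second (fold 2.90), so the 2 replicates placed the same promoter at the top 0.142% and near the middle. The Arid2 start carried PHF10 over an unusual breadth, with single peaks of 3342 bp in KO cells and 3429 and 3609 bp in control cells at 0 h, 3909 bp in control cells at 24 h, and 3917 bp in KO cells and 4004 and 3935 bp in control cells at 48 h. Each of these peaks also covered the upper end of the Gm38469 span, so they cannot be assigned to Arid2 alone. The median PHF10 peak was 462 bp long in KO cells and 469 and 479 bp in control cells at 0 h. Pbrm1 had the lowest rank of the 4 start peaks in 6 of the 7 PHF10 lists, the exception being the second control library at 48 h.

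**Figure D2:**
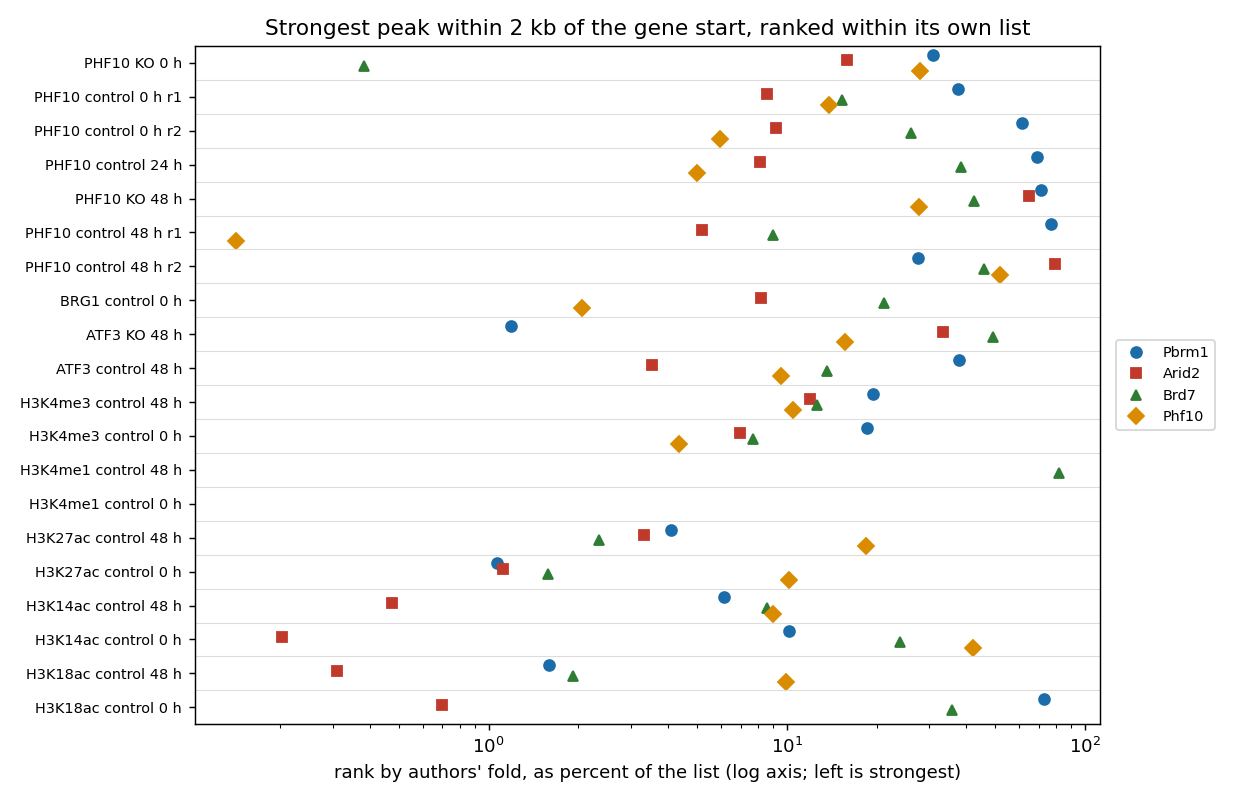
Place of the strongest peak within 2 kb of each gene start inside its own list, as percent of the list ranked by the authors' fold (log axis, strongest at the left), with 1 row per list. The Brd7 start lies at 0.382% in the KO PHF10 list at 0 h and the Phf10 start at 0.142% in the first control list at 48 h, and most PHF10 start peaks lie between 5 and 80%.

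Control cells had more PHF10 calls at these genes at 48 h than at 0 h, and the difference did not pass its test. The 4 genes together had 12 and 22 PHF10 peaks at 48 h, against 6 and 8 at 0 h. On the log2(number + 1) scale the mean was 4.11 ± 0.58 at 48 h and 2.99 ± 0.26 at 0 h (SD, n = 2 each). The difference was 1.12 (exact two-sided permutation test, p = 0.33, the smallest that 2 against 2 can give). That value is from the peaks of the 4 genes summed, and the following medians are of differences per gene. Over all protein-coding genes the median was 0.95, and over the 13535 with a PHF10 peak in a 0 h library it was 1.05. Over the 4 genes it was 0.83, no higher than either. Gene by gene, Arid2 had 4 and 11 peaks at 48 h against 2 and 2 at 0 h (difference 1.37). Brd7 had 2 and 4 against 1 and 1 (0.95). Phf10 had 3 and 3 against 1 and 2 (0.71). The groups did not overlap at these 3 genes, as for 52.1% of all genes. Pbrm1 had 3 and 4 against 2 and 3 (0.37), and its groups met at 3. The direction depended on how strong a peak had to be. With lists cut to equal length the difference was -1.2, with peaks of a fold of at least 5 it was -1.2, and with a −log10 q of at least 5 it was -0.45. The median over all genes under these cuts is not given, so a turn particular to these genes cannot be read from them.

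In Pbrm1 KO cells the same 4 starts were occupied, and at 48 h the full list held more peaks around them. At 0 h the KO library had 2 peaks at Pbrm1 against 2 and 3 in control libraries, 1 at Arid2 against 2 and 2, 1 at Brd7 against 1 and 1, and 2 at Phf10 against 1 and 2. Arid2 was thus the 1 gene with fewer calls than both control libraries, as were 2.69% of all genes. Its further control call was a body peak at 89.3 kb in the first library and at 19.9 kb in the second. All 6 KO peaks at 0 h overlapped a control peak, while 9.51% of the whole KO list overlapped none. At 48 h the KO library had 5 peaks at Pbrm1 against 3 and 4, 21 at Arid2 against 4 and 11, 6 at Brd7 against 2 and 4, and 4 at Phf10 against 3 and 3. All 4 genes exceeded both control libraries, as did 57.5% of all genes. Of the 36 KO peaks at 48 h, 15 (41.7%) overlapped no control peak of either replicate, close to the 45.0% of the whole KO list. Conversely, all 12 peaks of the first control library and 20 of 22 of the second were overlapped by a KO peak, compared with 92.5% and 88.0% of those whole lists. Arid2, a long gene, had many calls in both genotypes. It had more peaks than 95.8% of genes in the KO list at 48 h and than 78.3% and 91.2% in the control lists, than 47.6% in the KO list at 0 h and than 87.3% and 78.9% in the control lists, and than 88.7% in the control list at 24 h. Per 100 kb of window, Arid2 had 15.2 in the KO list at 48 h, compared with 11.5 at Brd7, 11 at Phf10 and 4.08 at Pbrm1, the edited gene. In each of the other PHF10 lists Phf10 had more per 100 kb than Arid2. In the control lists at 48 h, Phf10 had 8.27 and 8.27 and Arid2 had 2.9 and 7.97. The number per 100 kb over all genes is not given. The comparison with the KO has 1 library and no test, and the KO list was the longest of the 7. Filters on peak strength turned the direction over time in KO cells, and the share of all genes under them is not given. With a fold of at least 5, all 4 genes had a KO peak at 0 h and none at 48 h, where the highest fold at these genes was 4.58. That cut keeps unlike parts of the lists: a fold of 4.58 ranked 5823 of 158815 at 48 h, and one of 6.035 ranked 3553 of 11515 at 0 h. With lists of equal length, 2 of the 4 had a peak at 0 h only. Against control cells at 48 h, a −log10 q of at least 5 and equal length each left 1 gene with peaks in control libraries only.

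**Figure D3:**
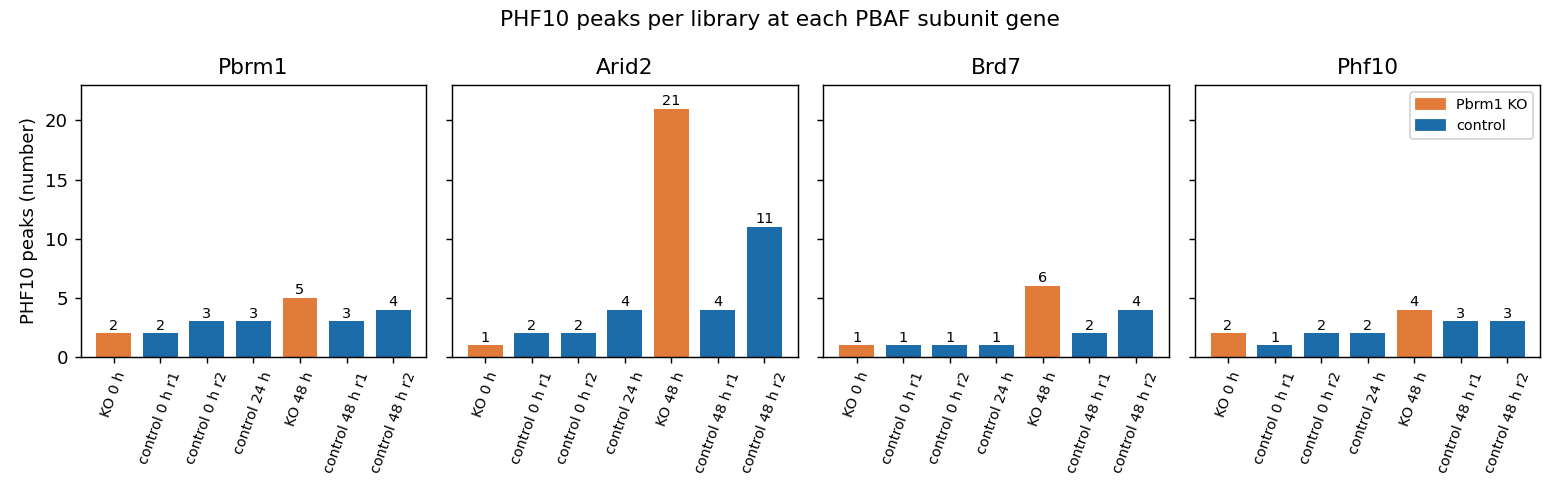
PHF10 peaks per library (y axis, number) in the gene span and 10 kb to either side, 1 panel per gene, with KO libraries in orange and control libraries in blue, each bar 1 library. Arid2 has 21 peaks in the KO library at 48 h against 4 and 11 in the control libraries, and all 4 genes have between 1 and 3 in every library at 0 h.

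PHF10 calls in KO cells at 48 h that overlapped no control peak lay away from the starts. Each gene kept a single start peak in the KO library at 48 h. The rest of the calls at Arid2 were 15 in the body, 3 in the upstream flank and 2 beyond the far end. Of all 21 Arid2 calls, 9 overlapped no control peak. At Brd7 the rest were 2 upstream, 1 in the body and 2 downstream, the widest of them covering 3732 bp. The 2 downstream calls overlapped control peaks, and 3 of all 6 Brd7 calls overlapped none. At Pbrm1, KO cells had a body peak 58.0 kb from the start that coincided with an ATF3 peak of the KO library at the same time, and a peak near the 3′ end at 101.2 kb. At Phf10, KO cells had 1 peak found in neither control library, 26.1 kb downstream of the start (fold 4.58, rank 5823 of 158815). A body site of Phf10 7.8 kb from the start was called by PHF10 at 48 h in the KO library and in both control libraries, and in none of the lists at 0 or 24 h. In the second control library at 48 h, a Pbrm1 body peak at 94.8 kb had rank 97 of 102434 (fold 6.14), and it was absent from the other PHF10 lists.

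BRG1, the ATPase, was found at all 4 genes in untreated control cells, as at 56.7% of all genes, but at the start of 3. The Phf10 start ranked 599 of 29215 by fold (4.71), the higher of 2 Arid2 start peaks ranked 2389, and the Brd7 start ranked 6193, while a start peak was called for 34.6% of genes. Pbrm1 had no BRG1 peak at its start, and its sole BRG1 peak lay at the Nt5dc2 start, 112.1 kb away, with a fold of 2.76. Of the 8 BRG1 peaks at these genes, 5 overlapped a PHF10 peak of the first and 5 one of the second control library at 0 h, compared with 15.9% and 19.8% of the BRG1 list. In the other direction, 4 of 6 and 4 of 8 PHF10 peaks overlapped BRG1, compared with 41.4% and 39.4% of those lists. A BRG1 peak in the Phf10 body, 11.6 kb from the start (14949483 to 14949755, fold 3.86), lay apart from every PHF10 peak.

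ATF3, a stress-induced bZIP transcription factor, had no peak at these genes in untreated cells of either genotype, in lists of 25 (KO) and 20 (control) peaks that reached 0.064% and 0.0594% of all genes. At 24 h the KO list (69 peaks, 0.114% of genes) had none at the 4 genes. The control list (2004 peaks) had 1, at Arid2, where 7.0% of all genes had one, and a peak in control cells but not in KO cells was likewise found for 7.0%. That peak covered 96285218 to 96285734, about 2 kb upstream of the start and inside the span of Gm38469. Its fold was 3.57 and its rank by fold 1386, and 1.29% of genes with a known start had an ATF3 peak within 2 kb of that start. The Arid2 peak was not kept at a fold or −log10 q of at least 5. At 48 h all 4 genes had an ATF3 start peak in both genotypes. A peak in the window was found for 84.6% of genes in KO cells and 76.4% in control cells, and near the start for 67.8% and 63.0%. In control cells, Pbrm1, Brd7 and Phf10 had it at 48 h and not at 24 h, as did 69.8% of genes.

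At 48 h the KO library held 5 ATF3 peaks at Pbrm1 against 3 in the control library, 16 at Arid2 against 6, and 6 at Brd7 against 2, but 2 at Phf10 against 3. Over all genes 72.2% had more ATF3 peaks in the KO library and 4.68% had fewer, as Phf10 did. The lists held 144513 (KO) and 45716 (control) peaks, and with a fold of at least 5, 2 of the 4 genes had an ATF3 peak in control cells only. The share of all genes at that cut is not given, and the cut keeps unlike parts of the lists. A fold of 4.75 ranked 18680 of 144513 in KO cells, and one of 4.48 ranked 39382 of 45716 in control cells. The start peaks took different ranks in the genotypes, with 1 library each and no test. The Pbrm1 start ranked 1726 of 144513 in KO cells (top 1.19%) and 17239 of 45716 in control cells (37.7%). The best start peaks of Arid2, Brd7 and Phf10 went the other way. That of Arid2 ranked 48331 of 144513 in KO cells and 1620 of 45716 in control cells. Brd7 stood at 49.2% of the KO list and 13.6% of the control list, and Phf10 at 15.7% and 9.56%. The Arid2 start had 3 short KO peaks of 204, 652 and 488 bp, and another of 452 bp just outside the 2 kb zone, against 2 control peaks of 1065 and 2300 bp that spanned the same stretch. Of the 14 control ATF3 peaks, 10 were overlapped by a KO peak (66.7% of the whole list), and 12 of the 29 KO peaks by a control peak (22.1%). ATF3 and PHF10 calls coincided often at 48 h: 22 of 29 ATF3 peaks in KO cells overlapped PHF10 (80.4% of the list), and in control cells 10 of 14 overlapped the first PHF10 library (58.8%) and 14 of 14 the second (90.2%). The PHF10 lists of these comparisons held 158815 (KO), 43549 and 102434 (control) peaks, and the part of list length in these shares was not tested.

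FOSL2 and FOSB are bZIP proteins of the AP-1 family, and their lists were short. FOSB had no peak at any of the 4 genes in its lists of 31 (KO) and 188 (control) peaks at 48 h or of 2 (KO) and 4 (control) at 0 h, and 0.0959% (KO) and 0.717% (control) of all genes had one at 48 h and 0.00914% in either genotype at 0 h. FOSL2 had none at 0 h, in lists of 5 (KO) and 7 (control) peaks that reached 0.00457% and 0.00914% of genes. At 48 h it was at 2 genes in KO cells, where 17.2% of all genes had a peak, and at 1 in control cells, where 9.22% did (9.21% with none at 0 h). The gene in common was Phf10, whose peak 11.6 kb into the body covered 14949474 to 14949809 in KO cells (fold 8.9, rank 2279 of 7381) and 14949479 to 14949739 in control cells (fold 6.74, rank 1659 of 3444). It is the interval that BRG1 occupied at 0 h, and no PHF10, ATF3 or histone list had a peak there. The second gene in KO cells was Pbrm1 itself, with a peak 69.6 kb from its start (31088600 to 31088874, fold 8.14), which also falls inside the overlapping span of Smim4. A FOSL2 peak in KO cells alone was found for 8.64% of all genes. Neither genotype had FOSL2 within 2 kb of a member start, where 2.33% (KO) and 1.1% (control) of genes had it.

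H3K4me3 and H3K27ac, marks of active promoters, covered all 4 starts at both times. In all, 73.2% of genes had an H3K4me3 peak in the window at 48 h and 73.5% at 0 h, and 59.2% and 66.6% had H3K27ac. Within 2 kb of the start the shares were 62.7% and 62.6% for H3K4me3 and 49.0% and 57.7% for H3K27ac. At 48 h the H3K4me3 start folds were 37.0 at Pbrm1, 48.5 at Brd7, 51.9 at Phf10 and up to 49.6 at Arid2, and at 0 h they were 45.8, 70.9, 80.4 and up to 72.7. Fold values of separate lists share no scale, so ranks were read instead: the Pbrm1 start ranked 5773 of 29720 at 48 h and 5881 of 31657 at 0 h, the best Arid2 start peak 3563 at 48 h and 2207 at 0 h, the Brd7 start 3752 at 48 h and 2430 at 0 h, and the Phf10 start 3130 at 48 h and 1379 at 0 h. As a share of its list, each start stood lower at 48 h than at 0 h (19.4% and 18.6% at Pbrm1, 12% and 6.97% at Arid2, 12.6% and 7.68% at Brd7, 10.5% and 4.36% at Phf10), with 1 library per time and no test. The H3K4me3 peak at the neighbouring Nt5dc2 start outranked that of Pbrm1 at both times, with a fold of 74.4 at 48 h and 95.3 at 0 h (rank 470 of 31657). For H3K27ac, the start peaks of Pbrm1, Arid2 and Brd7 were in the top 5% of both lists (ranks 652, 532 and 375 of 15962 at 48 h and 219, 230 and 323 of 20507 at 0 h), and Phf10 ranked 2941 at 48 h and 2100 at 0 h. At Arid2 both marks formed a pair of peaks, of 1242 and 2435 bp for H3K4me3 at 48 h, where PHF10 was called as 1 interval. The lower peak of the pair (96284724 to 96285966 for H3K4me3 at 48 h) lay inside the span of Gm38469.

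The promoter stretches printed above were covered unevenly. H3K4me3 covered all 250 bases at Pbrm1 and Brd7 at both times, but at Phf10 the 69 bases nearest the start at 48 h and 71 at 0 h. H3K27ac gave the same picture, with 250 bases at Pbrm1 and Brd7 and 72 (48 h) and 78 (0 h) at Phf10, so the TGACG of Phf10 lay outside these peaks. PHF10 covered between 0 and 63 bases of the Phf10 promoter in its 7 lists, between 49 and 250 at Brd7 and between 116 and 250 at Pbrm1. ATF3 at 48 h covered all 250 bases at Pbrm1 in both genotypes, TGACG included. It covered 28 (KO) and 193 (control) bases at Brd7 and 0 (KO) and 49 (control) at Phf10. The GC content of 88.4% at Phf10 stands beside this short coverage, and its part in the calls was not tested.

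Of the 3 remaining marks, H3K14ac was at all 4 genes at both times, and H3K18ac and H3K4me1 each had 1 gene at 48 h only. H3K14ac, which PBRM1 bromodomains bind, was at all 4 starts at 48 h and at 0 h, when the share of all genes with a peak was 74.4% and 18% (62.8% and 13.6% within 2 kb of the start). The lists held 35270 and 3453 peaks, and the Arid2 start was among the strongest in both, at rank 167 of 35270 at 48 h and rank 7 of 3453 at 0 h. Of 23 other SWI/SNF subunit genes, 23 had an H3K14ac peak at 48 h and 12 at 0 h. H3K18ac was at all 4 starts at 48 h and at 3 at 0 h, when 45.1% and 24.3% of genes had it in the window and 32% and 11.3% near the start. Phf10 gained its H3K18ac call at 48 h, as did 24.6% of genes, with rank 2024 of 20415. At Pbrm1 the H3K18ac start peak had rank 324 of 20415 at 48 h and 9618 of 13226 at 0 h, and at Arid2 the best start peak had rank 63 at 48 h and 92 at 0 h. H3K4me1, a mark of enhancers and promoter flanks, was at 3 genes at 48 h (43.3% of genes) and at 2 at 0 h (50.0%), and at the start of 1 gene at 48 h and of 0 at 0 h (27.6% and 27.7% of genes). Brd7 carried it at 48 h only, at its start and weakly (fold 4.67, rank 10503 of 12863), as did 5.51% of genes, and Phf10 had none at either time.

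**Figure D4:**
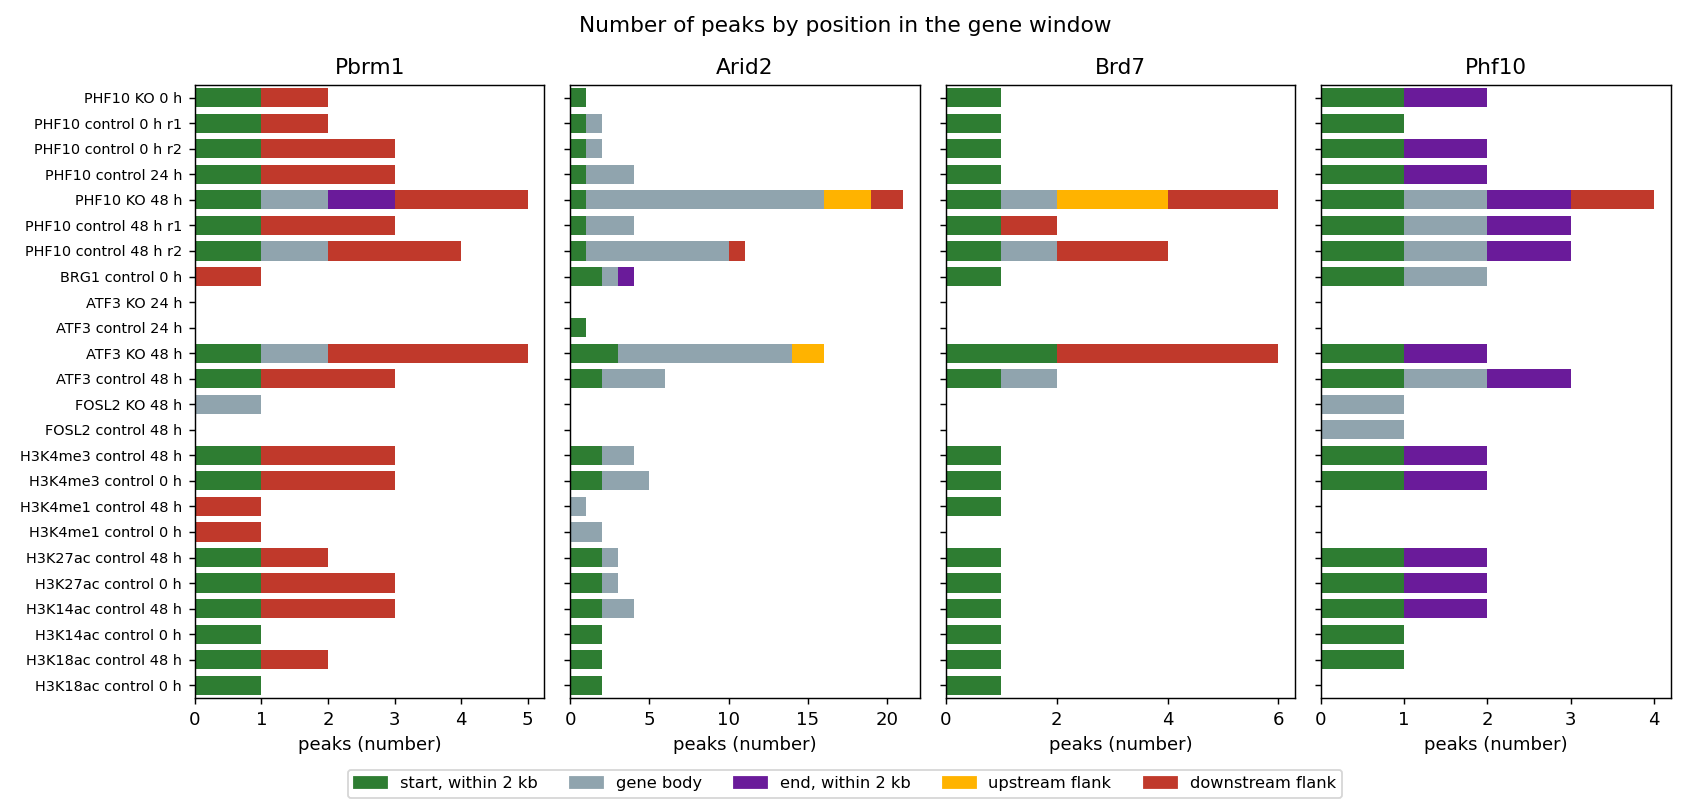
Number of peaks (x axis) at each gene by peak list, split by position: start and end zones reach 2 kb to either side, flanks reach 10 kb. At Brd7 all histone mark peaks sit at the start, Arid2 body peaks reach 15 in the KO PHF10 list at 48 h, and the Pbrm1 downstream flank holds 30 peaks over all lists.

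Arid2 held body sites that recurred in 5 lists or more, which the other 3 genes did not. The site 89.3 kb from the start was called in 14 lists of 6 targets, counting a KO ATF3 peak that a longer PHF10 peak joined to it. H3K4me1 covered 96376536 to 96377134 at 48 h with a fold of 58.7, the highest of 12863 peaks (the next was 55.9 and the median 8.46). At 0 h it covered 96376639 to 96376976 with a fold of 4.37 and rank 2421 of 20179. H3K27ac was there at rank 6519 of 15962 at 48 h (fold 26.3) and rank 11553 of 20507 at 0 h (fold 7.61). H3K4me3 was called at both times, H3K14ac at 48 h and not at 0 h, and H3K18ac at neither. PHF10 at this site was called in the KO library at 48 h and not at 0 h. Control cells had it in the first library at 0 h and not in the second, in both libraries at 48 h, and at 24 h, when it ranked 203 of 28011 (fold 7.45). ATF3 in control cells at 48 h lay on the same 282 bp core (96376690 to 96376972, fold 7.80). In KO cells ATF3 was called at 90.4 kb instead (96377799 to 96378057, fold 7.66), and that peak ranked 249 of 144513. BRG1, FOSL2 and FOSB were not called there. A site about 19.9 kb from the start was called by 3 targets (PHF10, ATF3 and H3K4me3) in 6 lists, and one about 32.8 kb from the start by 5 targets in 9 lists. At 19.9 kb, PHF10 was called at 0 h in the second control library alone and at 24 h with rank 557 of 28011. No list of high-signal regions was used to remove peaks here.

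The other SWI/SNF subunit genes give the pathway context. All 23 of those listed (14 core, 6 of canonical BAF and 3 of non-canonical BAF) had PHF10 peaks in all 7 lists and H3K4me3 and H3K27ac peaks at both times. BRG1 was at 20 of 23. ATF3 at 24 h was at 0 of 23 in KO cells and 5 of 23 in control cells, and at 48 h at 23 of 23 in both. FOSL2 at 48 h was at 5 of 23 in KO cells and 2 of 23 in control cells. In the KO PHF10 list at 48 h the median of these genes was 9 peaks, against 5 and 9 in the control lists. The 4 PBAF genes had medians of 5.5 against 3 and 4, and all protein-coding genes had 5 against 2 and 3. Other genes had the same presence or absence in all 32 lists. The pattern of Brd7 was matched exactly by 205 other genes, that of Pbrm1 by 151, that of Arid2 by 78 and that of Phf10 by 5.

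The labelled cell type was checked on its marks. Marker genes were read by a peak within 2 kb of a gene end, and the share of all genes by that measure is not given. All 11 epithelial marker genes had such an H3K4me3 peak at 48 h and at 0 h, and 7 at 48 h and 11 at 0 h had H3K27ac, with Cldn3, Cldn7, Esrp1 and Krt19 lacking it at 48 h. Of 8 mesenchymal marker genes, 8 had H3K4me3 and 7 had H3K27ac at both times. Of 10 marker genes of other cell types, 4 had H3K4me3 at both times, and 0 at 48 h and 2 at 0 h had H3K27ac. The 2 replicate lists of control PHF10 shared 2 identical intervals at 48 h and 0 at 0 h, so neither pair was a list deposited again.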

How the data were processed

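Peaks of 32 ChIP-seq libraries were used as deposited, 1 list per library. Fixation was disuccinimidyl glutarate followed by formaldehyde for ATF3, BRG1 and PHF10, and formaldehyde alone for FOSL2, FOSB and the marks, per the labels' protocols. Partek 11.0.24.0325, fastp 0.19.5, deepTools 3.5.1, MACS3 3.0.0a7, Bowtie2 2.3.3 and the mm10 build are named in the submitters' processing notes, without settings. The authors' deposited values per peak are a pileup signal (not used), −log10 p and −log10 q against input, and a fold, the ratio of ChIP to input. Fold and −log10 q served to rank or filter peaks within a list only. PHF10 and BRG1 lists reach down to a −log10 q of about 1.0 and most others to about 1.3. Read depth is unknown, so no interval or limit on a missing peak is given, and list length was not corrected for depth.

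Gene spans came from RefSeq (GRCm38.p6) and starts from its promoter table, without exons. Peaks within the span or 10 kb were counted. Start and end zones reach 2 kb, and lists overlap at 1 bp or more. Coordinates are printed as the files give them, and the first base may be off by 1. Numbers of PHF10 peaks were tested as log2(number + 1), with a pseudocount of 1, by an exact two-sided permutation test. No other comparison has a test. Counting was tested on simulated peaks. Alternatives were a −log10 q or fold of at least 5, flanks of 2 and 50 kb, peaks merged within 1 kb, lists of equal length, each replicate left out, and a replicate block. Same-numbered PHF10 libraries are not labelled as paired. All 4 genes were named, with the other SWI/SNF subunits as counts. The genes and lists were chosen with earlier results of these data known. Python 3.11.15, pandas 2.3.3, numpy 2.4.6 and matplotlib 3.10.9 were used.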

Additional observations from a re-analysis of the deposited data

Results flagged for a closer look

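KO and control cells differed in opposite directions at 2 times in both factors at Arid2, the gene of the ARID scaffold subunit. For ATF3 the KO library minus the control library was -1 peak at 24 h and 10 peaks at 48 h (0 against 1, and 16 against 6). For PHF10 the KO library minus the nearest control library was -1 peak at 0 h and 10 peaks at 48 h (1 against 2 and 2, and 21 against 4 and 11). The further PHF10 control peaks at 0 h were body calls at different sites, each absent from the other library. They lay at 89.3 kb in the first library (rank 6780 of 11285) and at 19.9 kb in the second (rank 5830 of 14731). The single ATF3 peak at 24 h, from lists of 69 (KO) and 2004 (control) peaks, was not kept at a fold or a −log10 q of at least 5 or with lists of equal length. Over all genes, 7.0% had an ATF3 peak at 24 h in control cells only and 72.2% had more at 48 h in KO cells, while 2.69% had fewer PHF10 peaks in KO cells than in both control libraries at 0 h and 57.5% had more at 48 h. The difference between the times was not tested, since KO cells had 1 library per time. The share of all genes with such a turn is not given. Pbrm1, Brd7 and Phf10 showed no such turn in PHF10. They had no ATF3 peak in either genotype at 24 h, so a turn in ATF3 could not appear there. The turn at Arid2 rests on single calls at the earlier times and cannot be read as particular to it.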

How the results depend on the processing

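Of 104 alternative values, 78 kept the direction and stayed within the tolerance set for the result (for a count, 1.5 times; for the tested difference, the side of the threshold), 23 moved beyond it and 3 turned round. The smallest p of 2 against 2 is 0.33, so the tested difference could not change its side, and its sign alone could turn. FOSB had no peak at these genes, so stricter filters could not change its count. The 78 are therefore no measure of how firm the results are. The control PHF10 difference at 48 h against 0 h (1.12) turned to -0.45 at a −log10 q of at least 5, and to -1.2 both at a fold of at least 5 and with lists of equal length. It was 1.05 with a flank of 2 kb, 2.08 with 50 kb, and between 0.71 (without the second control library at 48 h) and 1.53 (without the first at 48 h) when each replicate was left out. With the replicate number as a block it stayed at 1.12 (exact sign-flip permutation test, p = 0.5). The correlation of same-numbered libraries was -0.04 in their deviations, so the numbers were not taken as pairs.

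The number of the 4 genes with a peak in 1 arm only changed as follows. With a −log10 q of at least 5 it became 1 for PHF10 in KO against control cells at 48 h (control only) and in KO cells at 48 h against 0 h (0 h only), each 0 before. It became 0 for ATF3 in control cells at 24 h against 0 h and in KO against control cells at 24 h (each 1 before), 4 for ATF3 in control cells at 48 h against 24 h (48 h only, 3 before), 2 for H3K18ac (48 h only, 1 before) and 2 for BRG1 against PHF10 (PHF10 only, 0 before). A fold of at least 5 gave 4 for PHF10 in KO cells over time, all at 0 h only, and 2 for ATF3 in KO against control cells at 48 h, both in control cells only (0 before). It gave 0 for both ATF3 comparisons at 24 h, 4 for ATF3 in control cells at 48 h against 24 h, 2 for H3K4me1 (48 h only, 1 before), 2 for H3K18ac and 2 for BRG1 against PHF10 (PHF10 only). Lists of equal length gave 1 for PHF10 in KO against control cells at 48 h (control only), 2 for PHF10 in KO cells over time (0 h only), 0 for both ATF3 comparisons at 24 h, 0 for ATF3 at 48 h against 24 h, 0 for FOSL2 in control cells over time (1 before), 1 for H3K14ac (0 h only, 0 before) and 1 for BRG1 against PHF10 (PHF10 only). A flank of 50 kb gave 2 for FOSL2 in KO against control cells (KO only, 1 before), and one of 2 kb gave 1 for BRG1 against PHF10 (PHF10 only). The causes were not tested beyond the fewer peaks that a filter or an equal length leaves. Shares of all genes under these settings are not given, so the counts cannot be read as particular to these genes.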
